A study of Mus musculus with 15 samples.

Results

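The miR-23a/27a/24-2 cluster (the a cluster) and its paralog, the miR-23b/27b/24-1 cluster (the b cluster), were followed across a mouse small RNA sequencing study of miR-302 loss. The 6 hairpins were taken by name from a table of 1226 hairpins, with no measured value used in the choice: mmu-mir-23a, mmu-mir-27a and mmu-mir-24-2 in the a cluster, and mmu-mir-23b, mmu-mir-27b and mmu-mir-24-1 in the b cluster (the species prefix is left out from here on). The study held 15 libraries of C57BL/6 embryos in 6 groups. At embryonic day 7.5 (E7.5) there were 2 miR-302 knockout (KO) and 2 wild-type (WT) libraries of whole embryos. At E8.5 there were 4 KO and 3 WT libraries of sorted Wnt1-Cre+ neural crest, which per the labels covers cells before and after migration. At E9.5 there were 2 KO and 2 WT libraries of sorted Sox10+ neural crest after migration. Stage and cell source change together and cannot be told apart. The labels give KO with no allele, do not name the reporter that the Wnt1-Cre driver switched on, and do not say whether embryos were pooled or came from separate litters. P-values therefore measure only the spread between these libraries, which may be technical.

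Each cluster is transcribed as 1 primary RNA that is cut into hairpins and then into mature microRNAs (miRNAs) of the miR-23, miR-27 and miR-24 families. A mature miRNA finds its target mRNAs mostly through its seed, bases 2 to 8, so paralogs with the same seed share most predicted targets. In mice, these families are best known from blood vessels, where miR-23 and miR-27 promote sprouting, and from blood cells, fat and skeletal muscle. miR-27b also limits Pax3, a transcription factor of muscle progenitors that neural crest uses as well. The miR-302 family, which the study deleted, is best known from the pluripotent epiblast, and the WT neural crest libraries held it as well (values below).

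The mature sequences below show which members can be told apart by sequence and which share a seed, given in capitals (RefSeq, GRCm38.p6, 5′ to 3′).
miR-23a-3p: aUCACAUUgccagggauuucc
miR-27a-3p: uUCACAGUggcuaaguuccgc
miR-27b-3p: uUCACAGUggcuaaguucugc
miR-24-3p: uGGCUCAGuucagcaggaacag
miR-3074-5p: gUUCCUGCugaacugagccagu
miR-27a-3p and miR-27b-3p share the seed UCACAGU and differed at 1 of 21 bases (C19U, counted from the 5′ end of miR-27a-3p). How reads that match both closely were assigned is not stated, so the split between mir-27a and mir-27b is uncertain. miR-23b-3p was not in the sequences used here, so how far its reads differ from those of miR-23a-3p was not checked. The split between mir-23a and mir-23b is therefore uncertain as well. miR-23a-3p has the seed UCACAUU. Both mir-24 hairpins give the identical miR-24-3p, so its reads could come from either locus. miR-3074-5p is shown because it comes from the opposite strand of the mir-24 hairpins: 20 of its bases are the reverse complement of miR-24-3p.

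The a cluster lies on the plus strand of chromosome 8 (GRCm38.p6), with mir-23a at 84208518 to 84208592, mir-27a at 84208672 to 84208758 and mir-24-2 at 84208815 to 84208921. It spans 404 bases and, apart from the miRNA genes themselves, the 1 annotated gene it overlaps is the lincRNA Gm26532, at the end of mir-24-2. The b cluster lies on the plus strand of chromosome 13 and spans 792 bases, with mir-23b at 63300484 to 63300557, mir-27b at 63300712 to 63300784 and mir-24-1 at 63301208 to 63301275. It sits inside the protein-coding gene 2010111I01Rik on the same strand and inside Fancc on the opposite strand. mir-23b was intronic in every annotated transcript that covers it, while mir-27b and mir-24-1 overlapped exons of some 2010111I01Rik transcripts. The minus-strand hairpin mir-3074-1 covers all 68 bases of mir-24-1, and mir-3074-2 lies opposite 83 bases of mir-24-2.

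Levels are the authors' normalized counts, the reads of a hairpin divided by 1 size factor per library. A read here is a whole mature miRNA, so counts were not divided by hairpin length (68 to 107 bases in the 6 members), and levels of different hairpins are compared on the normalized count scale only. Depth ran from 1706 to 323389 reads per library. Libraries E8.5 KO replicate 3 (1706 reads, where 1 read was worth 19.3 normalized counts) and E8.5 KO replicate 4 (9757 reads) were the 2 libraries under 10000 reads, and results that these libraries move are also given without them. The summed level of the deleted mir-302a to mir-302d checked the labels: it was 31.0 and 13.2 in E7.5 KO against 4001 and 14226 in E7.5 WT, and 0 to 19.3 in E8.5 KO against 3875 to 6522 in E8.5 WT. At E9.5 it was 148 and 75.4 in KO against 338 and 466 in WT, so the E9.5 KO libraries also held miR-302 signal. The source of that signal was not tested.

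Together the 6 members made up 0.117% to 1.17% of a library's normalized counts. mir-23b was the most abundant (2757 reads over 15 libraries, mean level 112, rank 76 of 1226 hairpins), followed by mir-23a (2023 reads, mean 91.5, rank 96) and mir-27b (1640 reads, mean 56.5, rank 125). mir-27a had 123 reads and a mean of 4.99 (rank 278). A hairpin was tested if 2 or more libraries held 10 or more normalized counts of it, and these 4 members were. mir-27a met this with exactly 2 libraries, E7.5 WT replicate 1 and E9.5 KO replicate 1. It was thus tested through the groups in which it was high, so its place in the counts and medians below supports nothing.

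mir-24 was nearly absent from the table. mir-24-1 had 0 reads in all 15 libraries, and 3 reads, the upper limit that a count of 0 allows, correspond to 0.441 normalized counts in the deepest library and 58.0 in the shallowest. mir-24-2 had 3 reads in all: 1 each in E9.5 KO replicates 1 and 2 (1.47 and 2.90 normalized counts) and 1 in E9.5 WT replicate 2 (0.312), with 0 in E9.5 WT replicate 1 and in every E7.5 and E8.5 library. Neither copy was tested. The opposite-strand hairpin mir-3074-1 had 144 reads and mir-3074-2 had 0.

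**Figure D1:**
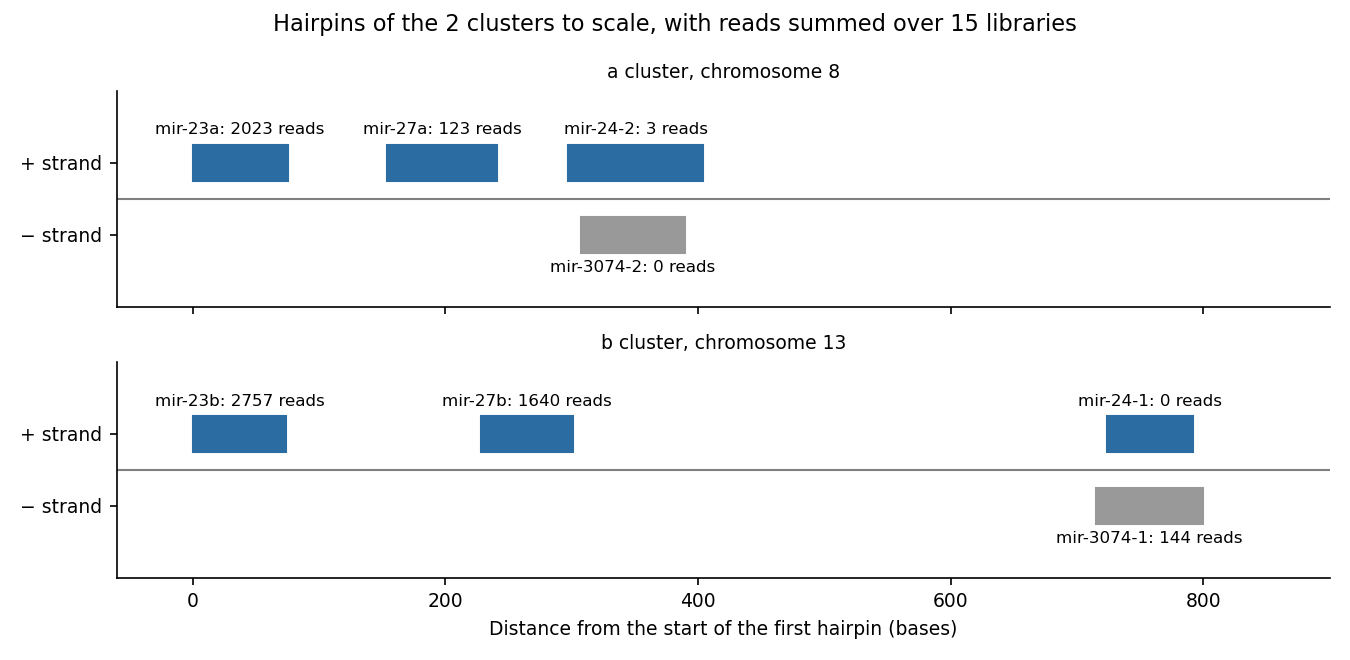
Hairpins of the a cluster (top) and the b cluster (bottom) drawn to scale along the distance in bases from the start of the first hairpin, plus strand above and minus strand below the line, each with its reads summed over 15 libraries. mir-23a and mir-23b hold 2023 and 2757 reads, mir-24-2 and mir-24-1 hold 3 and 0, and 144 reads lie on mir-3074-1 opposite mir-24-1.

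The low mir-24 values can be set beside other hairpins of the same 2 kinds. Of 40 families of hairpins that share a mature sequence, 23 had over 100 reads in all, and in 22 of these 23 the most-read copy had under 3 times the reads of the least-read one (the exception is mir-3074-1 and mir-3074-2), for example 7084 and 8245 reads for let-7f-1 and let-7f-2 or 7623 and 8387 for mir-30c-1 and mir-30c-2. Of 34 hairpins with an annotated hairpin on the opposite strand, 23 were at 0 reads, against 190 of 907 positioned hairpins with none, a difference that was not tested. In each of the 17 opposite-strand pairs at least 1 partner had 0 reads, among them mir-126b (0 reads) opposite mir-126a (1436 reads) and mir-3065 and mir-338 (0 reads each). Whether counting used the strand is not given in the sources used here, and the part of the opposite-strand hairpins in the low mir-24 values was not tested, so a value near 0 cannot be read as absence of miR-24.

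mir-3074-1 itself was low. Its normalized counts were 4.77 and 2.19 in E7.5 KO, against 14.04 and 14.27 in E7.5 WT. At E8.5 they lay between 0 and 11.2 in KO and between 0 and 2.03 in WT. At E9.5 they were 13.2 and 11.6 in KO, against 5.14 and 3.43 in WT. Its 2 to 39 reads in the E7.5 and E9.5 libraries limit what these values can show, and with no strand stated they could hold reads from either strand.

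mir-23b, the member with reads in every library, stood at 64.4 and 156 normalized counts in E7.5 KO, against 227 and 240 in E7.5 WT. At E8.5 it was 91.5, 28.6, 38.7 and 48.5 in KO, against 62.5, 46.7 and 64.3 in WT. At E9.5 it was 167 and 290 in KO, against 71.7 and 80.2 in WT. The KO libraries were thus all below WT at E7.5, mixed with WT at E8.5, and all above WT at E9.5, and the E8.5 libraries were low in both genotypes.

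mir-23a, its paralog in the a cluster, stood at 76.3 and 217 normalized counts in E7.5 KO, against 391 and 88.6 in E7.5 WT. At E8.5 it was 75.7, 20.01, 0 and 33.6 in KO, against 18.4, 26.4 and 16.5 in WT. At E9.5 it was 189 and 145 in KO, against 39.7 and 35.2 in WT. The E7.5 groups overlapped, with the 2 WT libraries further apart than the 2 KO libraries. The 0 belongs to E8.5 KO replicate 3, where a count of 0 allows up to 58.0, so it does not set that library below the others.

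mir-27b stood at 57.2 and 89.9 normalized counts in E7.5 KO, against 177 and 104 in E7.5 WT. At E8.5 it was 41.0, 19.3, 0 and 33.6 in KO, against 34.9, 37.3 and 31.4 in WT. At E9.5 it was 64.6 and 55.1 in KO, against 56.9 and 45.5 in WT, and these groups overlapped. Its 0 is again in E8.5 KO replicate 3.

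mir-27a, which shares the seed of mir-27b, was the lowest of the tested members. It had 0 and 5.48 normalized counts in E7.5 KO, against 18.2 and 6.59 in E7.5 WT. At E8.5 it was 6.31, 2.14, 0 and 0 in KO, against 7.35, 1.02 and 3.09 in WT. At E9.5 it was 14.7 and 5.80 in KO, against 3.82 and 0.312 in WT. These levels rest on few reads, for example 10 and 2 in the E9.5 KO libraries.

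**Figure D2:**
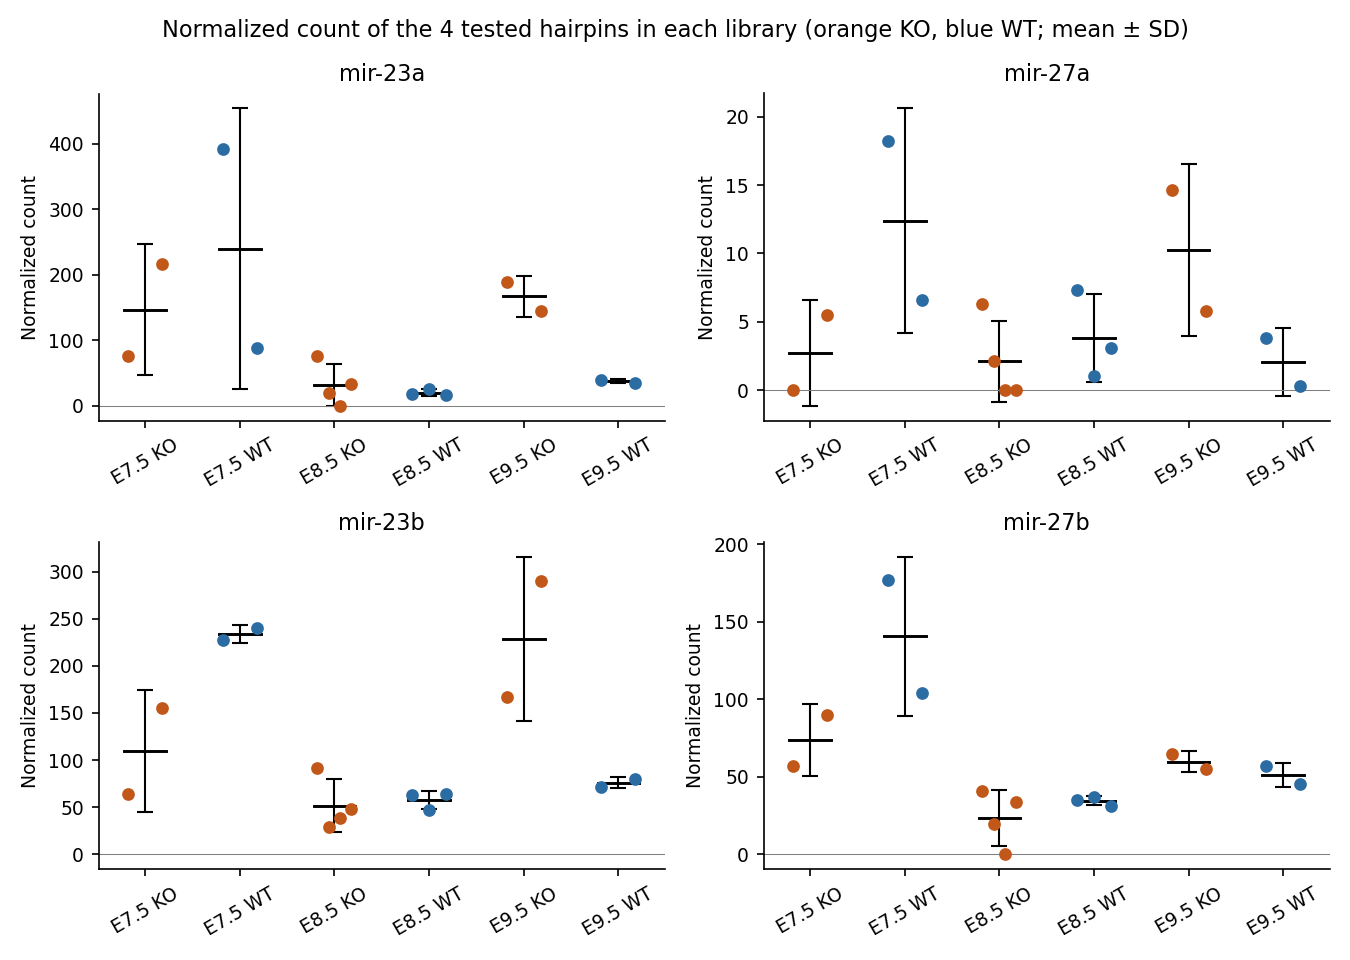
Normalized count of mir-23a, mir-27a, mir-23b and mir-27b in each library, with E7.5, E8.5 and E9.5 from left to right and KO (orange) left of WT (blue); points are libraries, the long line is the group mean and the bar 1 SD (n = 2 to 4). The axes differ between panels. mir-23b lies at 167 and 290 in E9.5 KO against 71.7 and 80.2 in E9.5 WT, and at 28.6 to 91.5 in E8.5 KO against 46.7 to 64.3 in E8.5 WT.

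In the WT groups alone, the order of group means was the same for mir-23a, mir-23b and mir-27b: lowest at E8.5, higher at E9.5 and highest at E7.5. mir-23b averaged 234 ± 9.38 at E7.5 (SD, n = 2), 57.9 ± 9.66 at E8.5 (n = 3) and 75.9 ± 5.98 at E9.5 (n = 2), and none of its 3 groups of libraries overlapped. For mir-23a the means were 240 ± 214, 20.4 ± 5.28 and 37.5 ± 3.13, and for mir-27b they were 141 ± 51.2, 34.5 ± 2.96 and 51.2 ± 8.01. In KO the E8.5 mean was again the lowest, but E9.5 stood above E7.5 for mir-23a (167 ± 31.3 and 147 ± 99.5) and mir-23b (229 ± 86.9 and 110 ± 64.5). It stood below E7.5 for mir-27b (59.8 ± 6.67 and 73.5 ± 23.1). The E9.5 and E7.5 KO libraries overlapped for mir-23a and mir-27b but not for mir-23b (167 and 290 against 64.4 and 156). KO E9.5 against KO E7.5 was not tested.

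Whether miR-302 loss went with other levels of the 2 clusters was tested at each stage with limma on log2(normalized count + 1), with p-values adjusted by Benjamini-Hochberg over all 299 tested hairpins and a threshold of 0.05. At E7.5, 0 of the 4 tested members passed the threshold (background 2.68% of tested hairpins called), and 0 of 4 had an unadjusted p under 0.05. All 4 log2 fold changes were negative; their median was -1.06, and that of all tested hairpins -0.25. mir-23b had a log2 fold change of -1.21 ± 0.61 (SE, adjusted p = 0.531) and mir-27a of -2.25 ± 1.17 (adjusted p = 0.567). In normalized counts, mir-23b, mir-27a and mir-27b were lower in both KO libraries than in both WT libraries. Such a downward separation was seen in 20.4% of the tested hairpins. As a share of the library's reads, mir-27b was 0.157% in KO replicate 2 against 0.150% in WT replicate 2. For mir-27a these shares were 0.00955% and 0.00945%, so both separations depend on the size factors. The mir-27a count of 0 in KO replicate 1 allows up to 7.15 normalized counts, above the 6.59 of WT replicate 2. mir-23a had -0.53 ± 1.47, and its sign turned to 0.22 without E7.5 KO replicate 1 and to 0.54 without E7.5 WT replicate 1.

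At E8.5, where the groups were largest, 0 of the 4 tested members passed the threshold (background 2.01%), and 0 of 4 had an unadjusted p under 0.05. The groups overlapped for all 4, while 11.4% of tested hairpins had groups that did not overlap. mir-23b had a log2 fold change of -0.28 ± 0.46 (adjusted p = 0.867), which was 0.04 under library-sum scaling, and mir-27b of -1.44 ± 1.0 (adjusted p = 0.652). Without the 2 libraries under 10000 reads, the value of mir-27b was -0.28, that of mir-23b was -0.16, that of mir-23a was 0.93 against -0.45 with them, and that of mir-27a was 0.23 against -0.90. At E8.5, KO replicates 2 and 3 carry the same code number (128) in their labels, which do not say what it stands for. KO replicate 4 and WT replicate 2 were the 1 E8.5 pair of opposite genotypes with the same code (169), and at E7.5 all KO and WT libraries share 1 code (239). In the pair with code 169, mir-23a was 33.6 in KO and 26.4 in WT, mir-23b 48.5 and 46.7, mir-27a 0 and 1.02, and mir-27b 33.6 and 37.3.

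At E9.5 the higher mir-23a, mir-27a and mir-23b levels of the KO libraries did not overlap with WT, but 0 of the 4 tested members passed the threshold (background 0.669%). An upward separation of this kind was seen in 35.5% of the tested hairpins. mir-23b averaged 229 ± 86.9 in KO and 75.9 ± 5.98 in WT (SD, n = 2 each), a log2 fold change of 1.53 ± 0.61 (unadjusted p = 0.0251, limma adjusted p = 0.228). It was the 1 member of 4 with an unadjusted p under 0.05. mir-23a averaged 167 ± 31.3 in KO and 37.5 ± 3.13 in WT, a log2 fold change of 2.12 ± 1.47 (adjusted p = 0.418). mir-27a had 2.04 ± 1.17 (adjusted p = 0.345). mir-27b had 0.22 ± 1.30 (adjusted p = 0.947), and its sign turned under TMM scaling (-0.54) and library-sum scaling (-0.27). The members' median was 1.78, against 0.02 over all tested hairpins. At this stage all KO libraries carry the code number 171 and all WT libraries 209, so genotype and whatever the code stands for cannot be told apart.

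Lists of miRNAs that mark other cell types also differed in level between the E9.5 groups. The 5 vascular miRNAs summed to 377 and 806 in KO against 159 and 200 in WT, with 3 of 3 tested members above 0 and 0 past the threshold. Their 2 most abundant were mir-143 (mean 427 in KO, 149 in WT), of smooth muscle, and mir-126a (143 in KO, 23.9 in WT), of endothelium, while mir-126b and mir-145b were at 0 in both groups. The 10 neural miRNAs summed to 780 and 1642 in KO against 206 and 307 in WT (9 of 10 above 0, 0 past the threshold), led by mir-128-1 (214 in KO, 58.4 in WT) and mir-124-3 (158 in KO, 22.1 in WT). The 5 endoderm and liver miRNAs summed to 763 and 2361 in KO against 152 and 326 in WT (5 of 5 above 0, 0 past), led by mir-192 (492 in KO, 84.6 in WT) and mir-122 (441 in KO, 56.5 in WT).

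The 7 epithelial miRNAs, led by mir-200b and mir-200c, summed to 128 and 194 in KO against 26.9 and 29.0 in WT (4 of 7 above 0, 1 higher). mir-200b was 0 and 80.7 in KO against 9.05 and 13.4 in WT, so its groups overlapped, and mir-200c was 31.9 and 57.2 against 3.23 and 4.68. The 5 mesenchymal miRNAs ran the other way, at 676 and 747 in KO against 1630 and 1779 in WT (4 of 5 below 0, 0 past), led by mir-199a-2 (218 in KO, 544 in WT) and mir-199a-1 (201 in KO, 520 in WT). Of 9 muscle miRNAs only 1 was tested (log2 fold change 1.65, not past the threshold); they summed to 57.2 and 60.9 in KO against 6.61 and 59.3 in WT, nearly all of it mir-1a-1 (mean 52.5 in KO, 29.3 in WT), with mir-208b at 0 in both. Of 9 blood miRNAs none reached the filter, and they summed to 11.6 and 20.5 in KO against 8.38 and 9.36 in WT, led by mir-223 (5.83 in both) and mir-144. At E7.5 all 4 tested members of the 2 clusters were below 0. The vascular sum lay the other way there, at 1268 and 1426 in KO against 208 and 952 in WT. Of the 3 tested vascular miRNAs, 2 were above 0 and 1 below. This sum was mostly mir-143 (mean 1196 in KO, 419 in WT), while mir-126a averaged 46.9 in KO and 137 in WT. The neural, epithelial, and endoderm and liver sums were lower in both E7.5 KO libraries than in both WT libraries. The mesenchymal, muscle and blood sums overlapped there. No list marks neural crest itself, so the sorts were not checked by such markers. The part of these cell types in the values of the 2 clusters was not tested, and in bulk samples fewer cells of a type and less RNA per cell cannot be told apart.

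For mir-23b and mir-27a the KO libraries lay below WT at E7.5 and above WT at E9.5 in normalized counts, as in 26 of the 299 tested hairpins (8.70%). For mir-27a, the groups high in this pattern are those through which it passed the filter, so nothing is read from its share in it. The pattern was tested as a difference of the KO effect between stages with limma's F test over 2 contrasts. Of the 4 tested members 0 passed (background 2.34%). The adjusted p was 0.276 for mir-23b (unadjusted p = 0.0194), 0.422 for mir-27a, 0.593 for mir-23a and 0.799 for mir-27b.

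**Figure D3:**
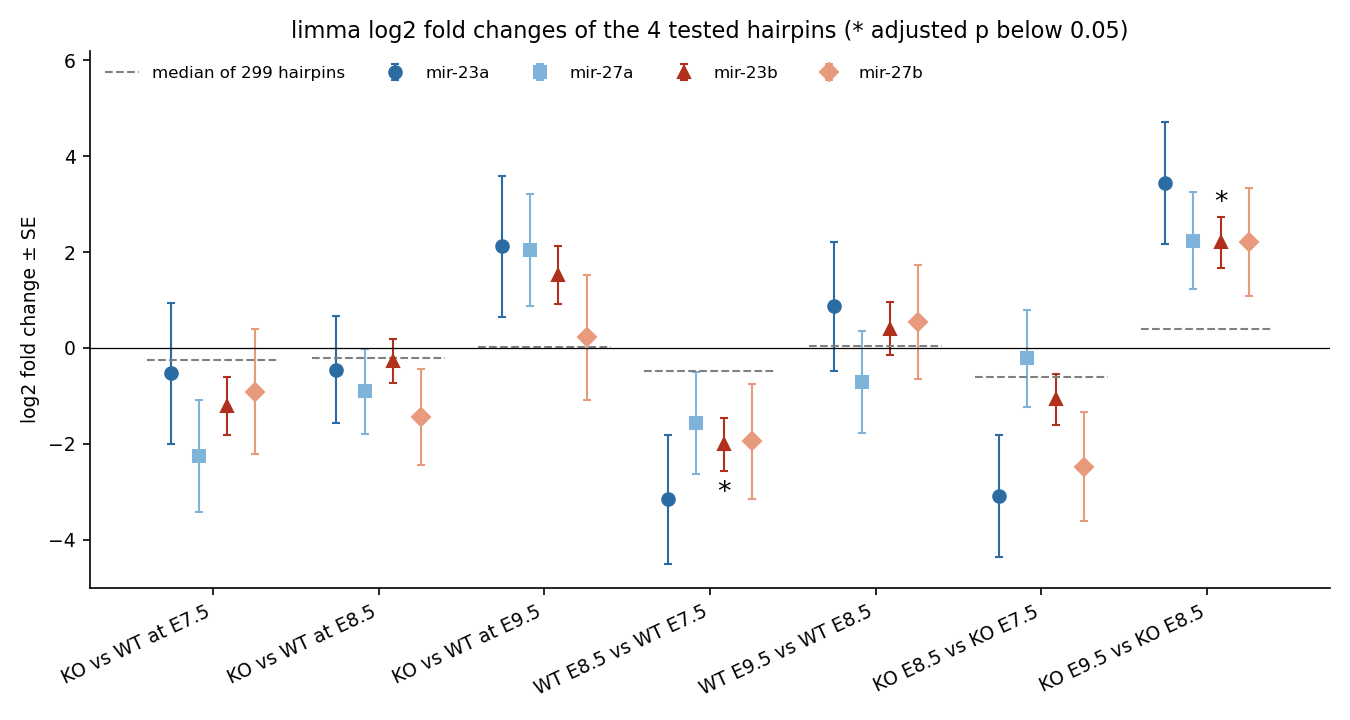
limma log2 fold changes ± SE of mir-23a, mir-27a, mir-23b and mir-27b in 7 comparisons, the first-named group over the second, with the median of 299 tested hairpins as a dashed line and an asterisk where the adjusted p was below 0.05. The 2 asterisks are mir-23b in WT E8.5 against WT E7.5 (-2.01) and in KO E9.5 against KO E8.5 (2.20).

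Between stages, mir-23b was lower in WT E8.5 than in WT E7.5, with 57.9 ± 9.66 normalized counts (n = 3) against 234 ± 9.38 (n = 2). Its log2 fold change was -2.01 ± 0.55 (limma adjusted p = 0.0189), and it was the 1 of 4 tested members to fall, where 17.1% of tested hairpins fell and 18.4% were called in either direction. mir-23a had -3.16 ± 1.34 (adjusted p = 0.133) and mir-27b -1.95 ± 1.19 (adjusted p = 0.325), and mir-27a had -1.56 ± 1.07 (adjusted p = 0.384). In mir-23a, mir-23b and mir-27b every E8.5 library lay below every E7.5 library, as in 38.8% of the tested hairpins. The members' median of -1.98 compares with -0.48 over all tested hairpins. The vascular list summed to 57.1 to 127 in WT E8.5 against 208 and 952 in WT E7.5, with all 3 tested members below 0 and 1 past the threshold; the epithelial list summed to 228 to 291 against 544 and 1026 (6 of 7 below 0, 1 fell) and the blood list, with no tested member, to 1.54 to 3.68 against 11.96 and 15.005. The neural, mesenchymal, muscle, and endoderm and liver sums of these groups overlapped, and the part of any list in the mir-23b value was not tested. All libraries share 1 estimate of the spread, and without E8.5 KO replicate 3, which is in neither group, mir-23a (adjusted p = 0.00424), mir-23b and mir-27b (adjusted p = 0.0108) all passed. The mir-23b call was lost under TMM scaling (adjusted p = 0.108), library-sum scaling (adjusted p = 0.0831) and edgeR (adjusted p = 0.0823), and without E7.5 WT replicate 1, E7.5 WT replicate 2 or E8.5 WT replicate 2 (adjusted p = 0.0732 to 0.0960).

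In WT E9.5 against WT E8.5, 0 of the 4 tested members passed the threshold (background 3.01%), and 0 of 4 had an unadjusted p under 0.05. mir-23a had a log2 fold change of 0.87 ± 1.34, mir-27b of 0.55 ± 1.19, mir-23b of 0.40 ± 0.55 and mir-27a of -0.70 ± 1.07. The E9.5 libraries of mir-23a, mir-23b and mir-27b all lay above the E8.5 libraries, as in 28.1% of the tested hairpins.

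In KO E8.5 against KO E7.5, 0 of the 4 tested members passed the threshold (background 31.1%). mir-23a had a log2 fold change of -3.08 ± 1.27 (adjusted p = 0.0835), mir-27b of -2.47 ± 1.13 (adjusted p = 0.118), mir-23b of -1.07 ± 0.53 (adjusted p = 0.143) and mir-27a of -0.22 ± 1.01 (adjusted p = 0.890), which turned to 0.04 under TMM and under library-sum scaling. For mir-23a and mir-27b all KO E8.5 libraries lay below the KO E7.5 libraries in normalized counts, as in 27.8% of the tested hairpins. As a share of the library's reads, mir-23a was 0.187% in KO E8.5 replicate 1 against 0.133% in KO E7.5 replicate 1. For mir-27b these shares were 0.102% and 0.0997%, so both separations depend on the size factors. The mir-27b count of 0 in KO E8.5 replicate 3 allows up to 58.0 normalized counts, above the 57.2 of KO E7.5 replicate 1. Without E8.5 KO replicate 1, the highest of its group for all 4, mir-23a (-3.85, adjusted p = 0.0239) and mir-23b (-1.39, adjusted p = 0.0436) passed. Without the 2 libraries under 10000 reads mir-23a had -1.69 (adjusted p = 0.133), mir-27b -1.32 (adjusted p = 0.0993) and mir-27a 0.91.

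mir-23b was higher in KO E9.5 than in KO E8.5, with 229 ± 86.9 normalized counts (n = 2) against 51.8 ± 27.7 (n = 4). The log2 fold change was 2.20 ± 0.53 (limma adjusted p = 0.0107), and mir-23b was the 1 of 4 tested members to rise, where 18.4% of tested hairpins rose and 27.1% were called in either direction. mir-23a had 3.44 ± 1.27 (adjusted p = 0.0615), mir-27a 2.24 ± 1.01 (adjusted p = 0.118) and mir-27b 2.21 ± 1.13 (adjusted p = 0.166). All 4 values were above 0 with a median of 2.22, against 0.40 over all tested hairpins; without the 2 libraries under 10000 reads the members' median was 1.58, with 1.11 for mir-27a (adjusted p = 0.450) and 1.05 for mir-27b (adjusted p = 0.179). For mir-23a, mir-23b and mir-27b the groups did not overlap in normalized counts, as in 27.1% of the tested hairpins in this direction. As a share of the library's reads, mir-27b was 0.0786% in KO E9.5 replicate 2 against 0.102% in KO E8.5 replicate 1. The mir-27b separation thus depends on the size factors. Its count of 0 in KO E8.5 replicate 3 allows up to 58.0 normalized counts, above the 55.1 of KO E9.5 replicate 2. The mir-23b call was lost without E9.5 KO replicate 2 (1.81, adjusted p = 0.168), under library-sum scaling (1.37, adjusted p = 0.0520), with edgeR (1.45, adjusted p = 0.0716) and with only the groups compared in the fit (adjusted p = 0.0946). Without the 2 libraries under 10000 reads mir-23b had 2.08 (adjusted p = 0.0260) and mir-23a 2.05 (adjusted p = 0.0743). mir-23a passed without E8.5 KO replicate 1 (adjusted p = 0.0210), replicate 3 (adjusted p = 0.0377) or replicate 4 (adjusted p = 0.0477), and mir-27a without replicate 1 (adjusted p = 0.0446). The vascular list summed to 377 and 806 in KO E9.5 against 77.3 to 158 in KO E8.5 (2 of 3 tested members rose), and the endoderm and liver list to 763 and 2361 against 58.0 to 297 (4 of 5 rose). The mesenchymal list summed to 676 and 747 in KO E9.5 against 67.8 to 340 in KO E8.5 (3 of 5 rose), and the epithelial list to 128 and 194 against 213 to 429 (3 of 7 fell). The blood list summed to 11.6 and 20.5 in KO E9.5 against 0 to 11.0 in KO E8.5, while the neural sums overlapped (2 rose, 1 fell). The part of these lists in the mir-23b value was not tested. The difference between the KO and the WT step was part of the F test above, which mir-23b did not pass.

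Part of each value follows the scaling of the libraries. TMM scaling moved the median of all tested hairpins by -0.22 in KO against WT at E8.5 and by -0.56 at E9.5. It moved the median by 0.53 and 0.32 in the E8.5 against E7.5 steps of WT and KO, and by -0.40 in KO E9.5 against KO E8.5. Library-sum scaling moved it by -0.40 to 0.58. Relative to that median, mir-23b stood at -1.53 in WT E8.5 against WT E7.5 under the authors' scaling and at -1.51 under TMM. In KO E9.5 against KO E8.5 mir-23b stood at 1.81 relative to the median under the authors' scaling and at 1.66 under TMM. In KO against WT at E9.5 it stood at 1.51 and 1.29.

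The balance of the 2 clusters within a library does not depend on the scaling. It does depend on how reads that match an a copy and a b copy closely were assigned, which is not stated. Among the reads of mir-23 and mir-27, the b copies made up 61.4% and 52.5% in E7.5 KO, against 49.7% and 78.4% in E7.5 WT. At E8.5 they made up 61.8%, 68.4%, 100% and 71.0% in KO, against 79.1%, 75.4% and 83.0% in WT. The 100% is 2 reads of 2 in KO replicate 3 (95% exact binomial interval 15.8% to 100%). At E9.5 the b share was 53.2% and 69.6% in KO, against 74.7% and 77.9% in WT. The 2 E7.5 WT libraries differed by far more than counting error, with intervals of 47.2% to 52.2% and 75.9% to 80.7%, which cover counting error only.

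**Figure D4:**
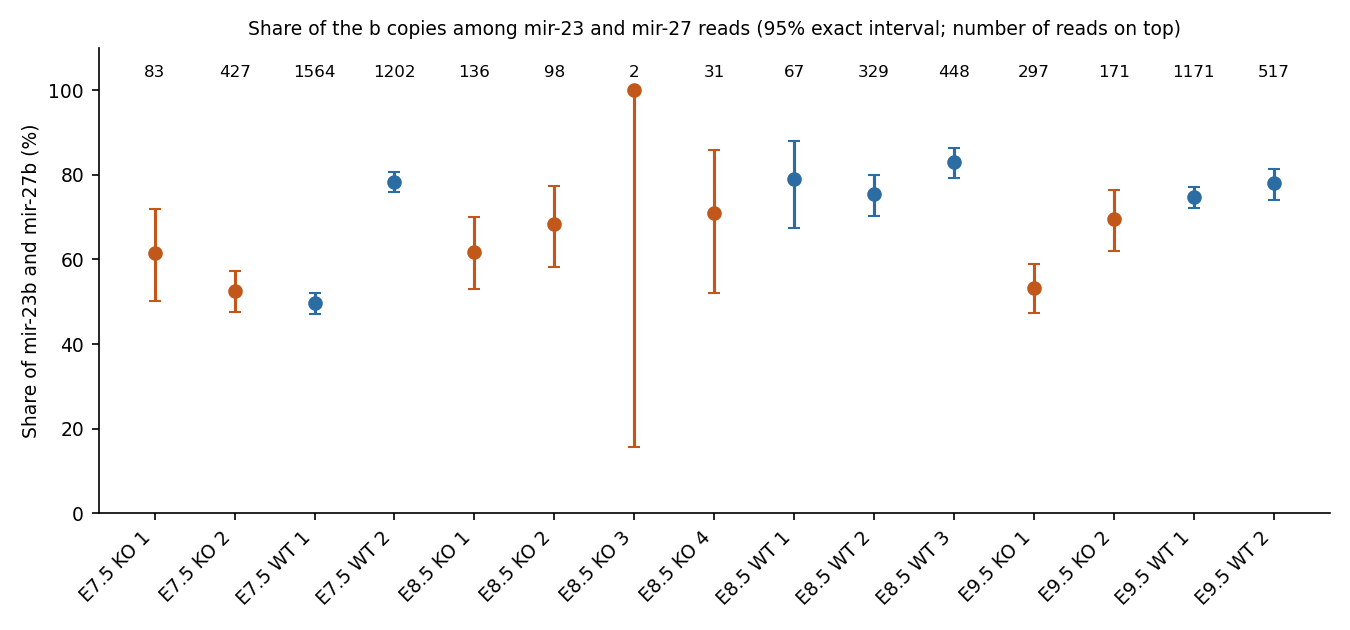
Share of mir-23b and mir-27b among all mir-23 and mir-27 reads (y axis, percent) in each of the 15 libraries, with 95% exact binomial intervals and the number of reads on top, KO orange and WT blue. Both E9.5 KO libraries (53.2% and 69.6%) lie below both E9.5 WT libraries (74.7% and 77.9%), and the 2 E7.5 WT libraries lie apart at 49.7% and 78.4%.

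As log2 ratios of reads with 0.5 added to each side, mir-23b over mir-23a averaged 0.90 ± 0.95 in E8.5 KO (SD, n = 4) and 1.5 ± 0.60 in E8.5 WT (n = 3). The difference of -0.60 did not pass an exact two-sided permutation test (p = 0.514, adjusted p = 0.514 over 4 ratios). Without KO replicate 3, whose ratio of 2.32 is 2 reads against 0, it was -1.07 (exact permutation p = 0.1, the smallest that 3 against 3 allow; adjusted p = 0.2). Both b copies over both a copies averaged 1.34 ± 0.70 in KO and 1.93 ± 0.34 in WT (difference -0.59, exact permutation p = 0.286, adjusted p = 0.514), and without KO replicate 3 the difference was -0.92. For mir-27b over mir-27a the difference was -1.02 (exact permutation p = 0.514), but KO replicate 3 held no read of either, and without it the difference was -0.20. With 4 libraries against 3 the smallest p such a test can give is 0.0571, so it could not reach 0.05. At E7.5 and E9.5, with 2 against 2, only values are given: mir-23b over mir-23a was -0.24 and -0.48 in E7.5 KO, against -0.78 and 1.44 in E7.5 WT, and -0.18 and 0.99 in E9.5 KO, against 0.85 and 1.18 in E9.5 WT.

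Between stages, with KO and WT libraries pooled, none of 12 ratio tests passed (exact two-sided permutation tests, 0 with an unadjusted p under 0.05). mir-23b over mir-23a averaged 1.16 ± 0.82 at E8.5 (n = 7) and -0.02 ± 0.99 at E7.5 (n = 4), a difference of 1.17 (exact permutation p = 0.0667, adjusted p = 0.291). At E9.5 it averaged 0.71 ± 0.61 (n = 4), which is 0.44 below E8.5 (difference -0.44, exact permutation p = 0.364). Both b copies over both a copies differed by 0.93 between E8.5 and E7.5 (exact permutation p = 0.0727, adjusted p = 0.291). mir-27b over mir-27a had a mean log2 ratio of 4.18 ± 1.0 at E7.5, 2.88 ± 1.60 at E8.5 and 3.88 ± 1.96 at E9.5, so mir-27b was on average the higher of the 2 copies at every stage, and the exact permutation p of its differences was 0.176 or more. The ratio of the mir-24 copies to the other members is set by the count added to its 0 or 1 reads and by depth, and nothing is read from it; its 3 differences had an exact permutation p of 0.0727 or more.

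The 2 clusters varied together across the libraries. The mean log2(normalized count + 1) of the a cluster and that of the b cluster had a Pearson correlation of 0.91 over 15 libraries, given as a description, since the libraries share stage, genotype and depth. Among single members the highest was mir-23a with mir-27b (0.92), which lie on different chromosomes, and within-cluster pairs were lower (0.63 for mir-23a with mir-27a, 0.64 for mir-23b with mir-27b). However, mir-23a and mir-27b both had 0 reads in E8.5 KO replicate 3, where mir-23b had 2, and mir-27a had 123 reads in all. The single pairs were not computed without that library, so nothing is read from their order. Without the 2 libraries under 10000 reads the correlation of the clusters was 0.83.

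The hairpins whose pattern was most like either cluster were all of the let-7 family, miRNAs that are held back by Lin28 in early embryonic cells and accumulate as cells differentiate. For the a cluster they were let-7f-1 (0.89), let-7g (0.89), let-7a-1 (0.89), let-7c-2 (0.88) and let-7b (0.87), against a median correlation of 0.26 over the tested hairpins. For the b cluster they were let-7f-1 (0.95), let-7g (0.95), let-7a-2 (0.95), let-7c-2 (0.94) and let-7b (0.94), against a median of 0.36. let-7f-1 averaged 541 ± 570 normalized counts in E7.5 KO and 774 ± 657 in E7.5 WT, 75.5 ± 110 in E8.5 KO and 69.9 ± 4.44 in E8.5 WT, and 1179 ± 744 in E9.5 KO and 139 ± 67.1 in E9.5 WT. Without the 2 libraries under 10000 reads, its correlation was 0.81 with the a cluster and 0.91 with the b cluster (13 libraries), and it ranked 12 and 8 among 295 hairpins. Without the 2 libraries farthest from the median of let-7f-1, E8.5 KO replicates 2 and 3 (3.57 and 0 normalized counts), it was 0.91 and 0.89.

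**Figure D5:**
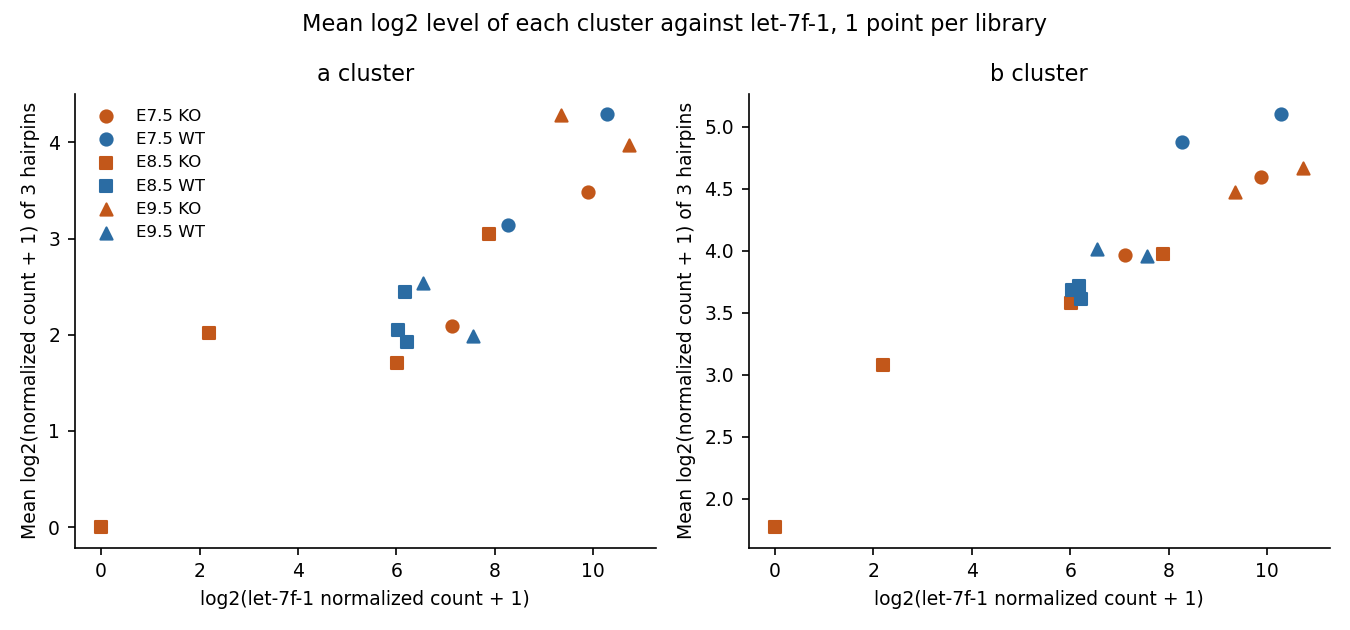
Mean log2(normalized count + 1) of the 3 hairpins of the a cluster (left) and of the b cluster (right) against log2(normalized count + 1) of let-7f-1, with 1 point per library, the stage as the shape and KO orange, WT blue. Libraries high in let-7f-1 are high in both clusters (r = 0.89 and 0.95 over 15 libraries), and the 2 points farthest to the left are E8.5 KO replicates 3 and 2.

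The 12 members of the let-7 list summed to 8022 and 13990 in E9.5 KO, against 830 and 2028 in E9.5 WT, led by let-7c-2 and let-7c-1, with all 12 log2 fold changes above 0 (median 2.89, 0 past the threshold). In WT E8.5 against WT E7.5 all 12 were below 0 (median -3.69, 2 fell), in KO E8.5 against KO E7.5 likewise (median -4.26, 7 fell), and in KO E9.5 against KO E8.5 all 12 were above 0 (median 5.56, 11 rose). The part of let-7 in the values of the 2 clusters was not tested.

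In the authors' deposited table of Mfuzz clusters, which groups 413 hairpins by pattern into 7 clusters, mir-23a, mir-23b and mir-27b were placed together in cluster 3, which holds 155 hairpins. mir-27a was in cluster 5, which holds 63.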

How the data were processed

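Small RNA was sequenced from 15 mouse libraries. The submitters' processing notes name FastQC 0.11.5, STAR 2.7.0f and the mm10 build. Which tool counted the reads, and whether it used their strand, is not stated there. The values used are the authors' deposited normalized counts (a signal unit), reads per hairpin divided by 1 size factor per library. Every value above 0 (6086, 100%) was a whole multiple of 1 read within 0.001, so reads were recovered. The authors' deposited Mfuzz cluster numbers (an other unit) are description only. 1 further per-library column matched no sample and was not used. All 2108 entries named for mature arms were 0.

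R 4.3.3 with limma 3.58.1 (two-sided, empirical Bayes with a mean trend) was run on log2(normalized count + 1) with 6 group means over 15 libraries. The added 1 shrinks the fold changes of low hairpins, but a count of 0 in a shallow library can enlarge them. In KO E9.5 against KO E8.5, mir-23a had 3.44 on this scale, 2.43 with a pseudocount of 10 and 2.05 without the libraries under 10000 reads. A hairpin was tested (299 in all) if 2 or more libraries held 10 or more normalized counts, and Benjamini-Hochberg adjustment ran over them at 0.05. Ratios were tested by exact permutation (scipy 1.17.1). Alternatives were TMM and library-sum scaling, no filter, a pseudocount of 10, edgeR 4.0.16 (quasi-likelihood) and DESeq2 1.42.0 on the recovered reads, only the groups compared, a replicate block, the 2 libraries under 10000 reads left out, and each library left out in turn. The fits were tested on simulated data. All pairs of replicates differed beyond sampling noise, by a chi-square of 2.07 to 171 for each degree of freedom, and each counts as 1.

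Named hairpins are the 6 members, the 5 hairpins most correlated with each cluster, and the mir-302 sum; of each marker list, the most abundant 2. Other hairpins named (mir-3074-1 and mir-3074-2, mir-126b, mir-145b, mir-338, mir-3065 and the copies of let-7f and mir-30c) were chosen after their values were seen. The members and the 8 lists (neural, vascular, blood, mesenchymal, epithelial, muscle, endoderm and liver, let-7) were chosen with earlier results of these data known. Sequences and positions are RefSeq's on GRCm38.p6, the assembly that mm10 also names, and overlapping genes are GENCODE's.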

Additional observations from a re-analysis of the deposited data

Results flagged for a closer look

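The log2 ratio of mir-23b over mir-23a was 0.27, 0.51, 2.32 and 0.51 in the 4 E8.5 KO libraries. The gap between KO replicate 3 and its nearest neighbour was 0.885 of the group's whole range, above Dixon's 95% critical value for 4 samples. Chance meets this criterion in about 1 in 20 groups. The check was run on each of the 6 members and 4 ratios in E8.5 KO, so a flag somewhere among them is likelier than that. KO replicate 3 had 2 reads of mir-23b and 0 of mir-23a.

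For mir-23b and for mir-27a, every KO library lay below every WT library at E7.5 and above every WT library at E9.5 in normalized counts. Of the 299 tested hairpins, 20.4% were lower without overlap at E7.5, 35.5% were higher without overlap at E9.5 and 8.70% showed both. mir-27a passed the filter on low values only through libraries of the groups that are high in this pattern, so nothing is read from it. The difference of the KO effect between stages did not pass limma's F test, with an adjusted p of 0.276 for mir-23b and 0.422 for mir-27a.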

How the results depend on the processing

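Depth limits the E8.5 KO group most, where replicates 3 and 4 hold 1706 and 9757 reads. Between KO and WT, 0 members passed the threshold under every setting, except that with no filter mir-24-2 passed at E9.5, which is 1 member on 3 reads. In WT E8.5 against WT E7.5 (1 member called), 0 passed under TMM scaling, library-sum scaling and the replicate block, and 3 passed with a pseudocount of 10, with DESeq2, with only the groups compared and without the libraries under 10000 reads; edgeR called mir-23a in place of mir-23b. In KO E8.5 against KO E7.5 (0 called), 2 passed with a pseudocount of 10 and with DESeq2. In KO E9.5 against KO E8.5 (1 called), 0 passed under library-sum scaling, edgeR and only the groups compared, and 2 with no filter, a pseudocount of 10 and DESeq2. Beside mir-23b these were mir-24-2 with no filter, on 1 read in each E9.5 KO library, and mir-23a with a pseudocount of 10 and with DESeq2. Leaving out 1 library in turn gave 0 to 3, 0 to 2 and 0 to 3 members in these 3 comparisons, and 0 in the others. No ratio passed under any alternative.

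Counts over all tested hairpins moved more. At E7.5 the 8 calls became 18 with no filter, 4 with edgeR and with DESeq2 and 0 with only the groups compared (6 to 27 leaving out 1 library, 27 without KO replicate 2). At E8.5 the 6 calls became 12 with DESeq2 (5 to 7). At E9.5 the 2 calls became 1 under TMM scaling, library-sum scaling, edgeR and the replicate block, 8 with no filter, 10 with a pseudocount of 10, 12 with DESeq2 and 0 with only the groups compared (0 to 4). The 55 calls of WT E8.5 against WT E7.5 became 91 with DESeq2 and 83 with only the groups compared (34 to 72). The 9 calls of WT E9.5 against WT E8.5 became 4 with no filter, 17 with a pseudocount of 10 and without the libraries under 10000 reads, 30 with edgeR, 37 with DESeq2, 45 with only the groups compared and 1 under the replicate block (1 to 19). The 93 calls of KO E8.5 against KO E7.5 became 58 with only the groups compared (71 to 104). The 81 calls of KO E9.5 against KO E8.5 became 49 with no filter and 11 with only the groups compared (14 to 91, 14 without E9.5 KO replicate 2). The 7 calls of the F test became 3 under library-sum scaling, 12 with no filter and with a pseudocount of 10, and 4 with edgeR and under the replicate block (4 to 25).

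Some values below the threshold changed sign. At E7.5, mir-23a became 0.22 without KO replicate 1 and 0.54 without WT replicate 1 (-1.59 to 0.54 leaving out 1 library). At E8.5, mir-23a became 0.11 with a pseudocount of 10, 0.70 with edgeR, 0.84 with DESeq2, 0.93 without the libraries under 10000 reads and 0.86 without KO replicate 3 (-1.23 to 0.86). There mir-23b became 0.040 under library-sum scaling and mir-27a 0.23 without the libraries under 10000 reads. At E9.5, mir-27b became -0.54 under TMM scaling, -0.27 under library-sum scaling and -0.47 with edgeR. In WT E9.5 against WT E8.5, mir-27a became 0.23 without E9.5 WT replicate 2 (-1.64 to 0.23). In KO E8.5 against KO E7.5, mir-27a became 0.036 under TMM and 0.042 under library-sum scaling, 0.37 with edgeR, 0.91 without the libraries under 10000 reads, 1.13 without E7.5 KO replicate 2 and 0.16 without E8.5 KO replicate 3 or 4 (-1.57 to 1.13). With normalized counts plus 1, the E8.5 difference of KO and WT became 0.18 for mir-23b over mir-23a and 0.19 for both b over both a copies. The E9.5 minus E7.5 difference of mir-27b over mir-27a became 0.18 without E7.5 KO replicate 1, 0.30 without E9.5 KO replicate 1 and 0.0050 without E9.5 KO replicate 2 (-1.21 to 0.30). The cause of these moves was not tested.

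Replicate numbers are taken from the titles, and same-numbered libraries of KO and WT deviated together with a correlation of -0.23 at E7.5, 0.09 to 0.14 at E8.5 and 0.19 at E9.5, and with -0.29 to 0.08 between stages, so they are not taken as pairs. With the replicate block mir-23b had -1.98 (limma adjusted p = 0.0683) in WT E8.5 against WT E7.5. In WT E9.5 against WT E8.5 mir-23a became -0.085 and mir-27b -0.29 under the block, and in KO E8.5 against KO E7.5 mir-27a became 0.54.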
